A study of Homo sapiens with 24 samples.

Results

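TFEB, TFE3 and their nutrient-sensing regulators are a set of 10 genes given by name. The set holds the transcription factors TFEB, TFE3 and MITF, the folliculin complex genes FLCN, FNIP1 and FNIP2, the Rag GTPase genes RRAGA, RRAGC and RRAGD, and LAMTOR1 of the Ragulator complex. All 10 had a row of their own among the 11927 gene features of the table, and 9 had enough reads to be tested, MITF being the exception. The cells were HepG2, an established human liver cancer line, transduced with a lentiviral Cas9 construct and kept as drug-selected populations that were not stated to be clones. The control populations carried sgCtrl, a guide to the AAVS1 safe-harbour site, and the others carried sgKEAP1-1 or sgKEAP1-2, guides to KEAP1, so Cas9 and a guide were present in every group. Each population was transfected with a control siRNA (siNC) or with siRNA pools against both TFEB and TFE3 (siTFEB/siTFE3), and RNA was taken after 72 h. The 3 guides and 2 siRNA conditions make 6 groups of 4 libraries, 24 in all, and the siRNA pools were always used together, so loss of TFEB and loss of TFE3 cannot be told apart.

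TFEB, TFE3 and MITF are bHLH-zipper transcription factors of the MiT/TFE family, which bind E-box sequences near the starts of lysosomal and autophagy genes. In fed cells the Ragulator scaffold, anchored to the lysosomal membrane by LAMTOR1, holds heterodimers of RagA or RagB with RagC or RagD, and these recruit the kinase mTORC1 to the lysosome. Folliculin, with FNIP1 or FNIP2 as its partner, is the GTPase-activating protein for RagC and RagD, and the RagC or RagD so formed presents TFEB and TFE3 to mTORC1, which phosphorylates them and keeps them in the cytoplasm. In starved cells the factors enter the nucleus, where FLCN, FNIP1, FNIP2, RRAGC and RRAGD are themselves among their known targets. KEAP1 is the adaptor through which the transcription factor NRF2 is ubiquitinated. These controls act largely on the protein and its location, whereas the data here are messenger RNA levels.

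The libraries held 3527000 to 4600951 reads each. Levels are given below in CPM, reads of a gene scaled to a common library size after TMM normalisation, which makes libraries of unequal depth comparable, and a gene was called where its limma-voom p-value, adjusted by the Benjamini-Hochberg method over all 11152 genes tested, was below 0.05. On principal components the first, with 31.8% of the variance, placed the 8 sgCtrl libraries apart from the 16 with a KEAP1 guide, and the second, with 11.7%, set apart replicate 1 of siNC; sgKEAP1-1 and replicate 1 of siTFEB/siTFE3; sgKEAP1-2, so calls of the members that changed without these 2 libraries are given beside the results. KEAP1 RNA was 77.5 to 93.6 CPM with sgCtrl under siNC, 48.1 to 59.2 CPM with sgKEAP1-1 and 72.1 to 81.0 CPM with sgKEAP1-2. It fell with sgKEAP1-1 (log2 fold change -0.66, SE 0.11, adjusted p = 0.0001018) and did not pass with sgKEAP1-2 (-0.14, SE 0.10, adjusted p = 0.4478). A frameshift can remove a protein and leave its RNA, so KEAP1 RNA checks the guide labels only in part. All 8 liver cell markers were measured, and their summed level was 21867.5 to 32646.5 CPM in sgCtrl and 14835 to 17514 CPM in the KEAP1-guide libraries under siNC. With KEAP1 loss under siNC 5 of the 8 fell, as did 944 of all 11152 genes. With knockdown averaged over the guides 1 of the 8 fell, as did 155 of all genes. Under siTFEB/siTFE3 the sums were 19691 to 28066 CPM and 12151 to 15707 CPM. Of the markers of other cells, LYZ and CD68 were the 2 of 4 blood markers analysed, at 1303 to 2814 CPM together in sgCtrl and 947 to 1913 CPM with a KEAP1 guide, and PTPRC and CD3E were not analysed here. The sum joins genes of opposite sign, since 1 of the 2 fell with KEAP1 loss under siNC and the other had a change above 0 that did not pass. PDGFRB, the 1 of 4 fibroblast markers analysed, was 1.34 to 11.6 CPM and fell with knockdown and with KEAP1 loss, and 0 of 3 endothelial markers were analysed. The part of these markers in the results below was not tested. The sample descriptions give the 4 libraries of each group 4 prefixes that read as dates, each shared by the same replicate number of all 6 groups. No label says what was done on those dates or whether the libraries came from separate cultures, so p-values measure the spread between these libraries, which may be technical. In bulk RNA, fewer cells of a type and less RNA per cell cannot be told apart.

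The siRNA targets come first, since they check the labels. TFEB (Entrez gene 7942, chromosome 6, 41651716 to 41703997 of GRCh37, minus strand) under siNC was 17.3, 6.98, 8.33 and 10.8 CPM in the 4 sgCtrl libraries, 13.4, 9.17, 11.3 and 13.7 CPM with sgKEAP1-1, and 10.4, 13.7, 10.4 and 7.59 CPM with sgKEAP1-2. Under siTFEB/siTFE3 it was 2.11, 2.17, 2.32 and 3.96 CPM with sgCtrl, 3.87, 1.41, 4.01 and 2.21 CPM with sgKEAP1-1, and 4.33, 4.43, 2.95 and 1.85 CPM with sgKEAP1-2. All 12 knockdown libraries lay below all 12 siNC libraries, so the labels and the levels match for TFEB. Averaged over the 3 guide populations, TFEB fell to 26.3% of its siNC level (log2 fold change -1.92, SE 0.21, adjusted p = 4.906e-06). These values rest on 6 to 68 reads a library, and within 1 population the call is fragile. TFEB passed with sgKEAP1-1 (-2.15, SE 0.37, adjusted p = 0.01298) and with sgKEAP1-2 (-1.67, SE 0.35, adjusted p = 0.0419), but not with sgCtrl (-1.96, SE 0.38, adjusted p = 0.08579), although its libraries there did not overlap either, and edgeR (adjusted p = 0.009225), DESeq2 (adjusted p = 3.676e-05) and a fit with replicate blocks (-2.01, adjusted p = 0.01572) called it. The call with sgKEAP1-1 was lost without siTFEB/siTFE3; sgKEAP1-1 replicate 2 or 4 (adjusted p up to 0.1152). The call with sgKEAP1-2 was lost without any 1 of that comparison's libraries other than siNC; sgKEAP1-2 replicate 4 (adjusted p up to 0.1316).

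TFE3 (gene 7030, chromosome X, 48886237 to 48900936, minus strand) under siNC was 29.2, 35.9, 31.9 and 36.1 CPM with sgCtrl, 60.5, 43.9, 58.1 and 34.0 CPM with sgKEAP1-1, and 53.4, 75.6, 38.4 and 52.0 CPM with sgKEAP1-2. After knockdown it was 9.47, 10.6, 7.88 and 19.6 CPM with sgCtrl, 14.4, 13.6, 10.7 and 19.0 CPM with sgKEAP1-1, and 17.0, 16.7, 12.9 and 19.2 CPM with sgKEAP1-2. Again every knockdown library was below every siNC library. Averaged over the guides TFE3 fell to 31.5% of its siNC level (log2 fold change -1.67, SE 0.15, adjusted p = 6.332e-08). It was the 1 member that passed in each population on its own, by -1.57 (SE 0.27, adjusted p = 0.02373) with sgCtrl, -1.74 (SE 0.25, adjusted p = 0.001005) with sgKEAP1-1 and -1.69 (SE 0.24, adjusted p = 0.0003485) with sgKEAP1-2. The call with sgCtrl was lost without siNC; sgCtrl replicate 2, 3 or 4 or siTFEB/siTFE3; sgCtrl replicate 1, 2 or 3 (adjusted p up to 0.2565).

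**Figure D1:**
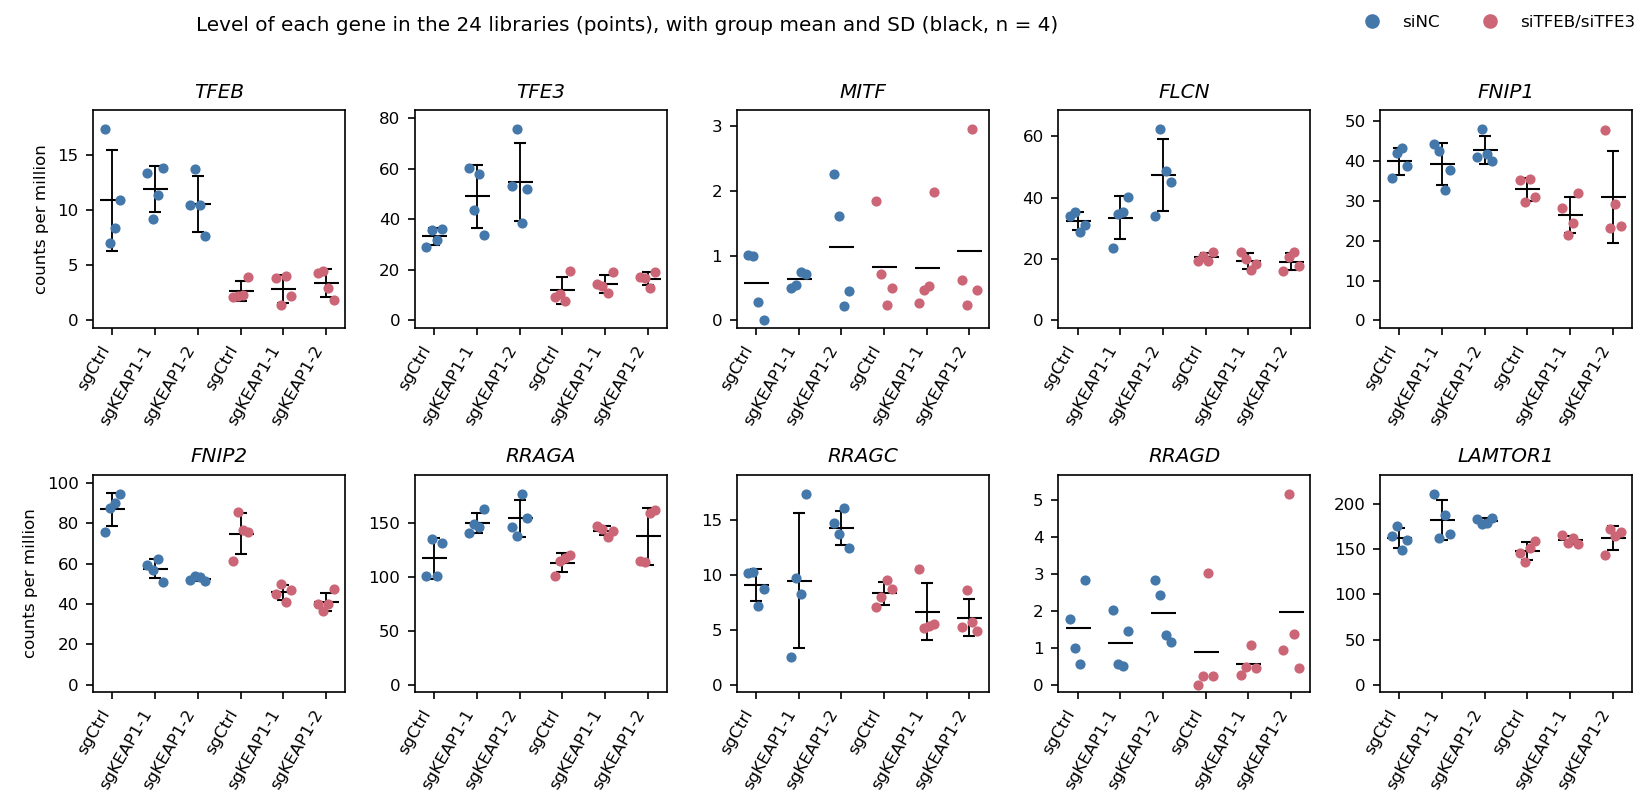
Level in CPM of each of the 10 genes in every library (points, 4 a group), with siNC in blue and siTFEB/siTFE3 in red, the group mean as a black line and, except for MITF and RRAGD, the SD as whiskers. TFEB and TFE3 separate by siRNA with no overlap, FLCN does so within each guide, and FNIP2 is lower with both KEAP1 guides under either siRNA.

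MITF (gene 4286, chromosome 3, 69788607 to 70017487, plus strand), the family member that the pools do not target, was close to the limit of detection. It had 4, 4, 1 and 0 reads in siNC; sgCtrl and 7, 3, 1 and 2 reads after knockdown in the same cells, and 0 to 13 reads over all 24 libraries. The groups overlapped in all 3 populations, and at this depth no change was detected. In a fit of all 11927 features with no filter on low counts the log2 fold change of MITF with knockdown was 0.20 (SE 0.47, adjusted p = 0.9174). TFEC, the remaining member of the family, was not analysed here.

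Knockdown was compared with siNC to see which genes of the circuit depend on TFEB and TFE3. Averaged over the guides, 5 of the 9 tested members fell and 0 rose. They were TFEB and TFE3, which the siRNAs target, and the 3 folliculin complex genes FLCN, FNIP1 and FNIP2. Over all genes 2.33% passed in this comparison, 1.39% as lower and 0.942% as higher. The median log2 fold change was -0.555 over the 9 members, with the targets among them, and 0.01 over all genes. Within 1 population 1 of the 9 passed as lower with sgCtrl, 2 with sgKEAP1-1 and 3 with sgKEAP1-2, where 0.0179%, 0.0717% and 0.260% of all genes did. The calls were TFE3 with sgCtrl, TFEB and TFE3 with sgKEAP1-1, and TFEB, TFE3 and FLCN with sgKEAP1-2. FLCN with sgKEAP1-2 was thus the only one of these calls outside the siRNA targets. With the replicate block the members that passed were 2 with sgCtrl, 3 with sgKEAP1-1 and 3 with sgKEAP1-2, and the genes that passed in either direction went from 2 to 4 with sgCtrl and from 10 to 30 with sgKEAP1-1. The members that the block added were TFEB, a target, with sgCtrl and FLCN with sgKEAP1-1. Averaged over the guides, the same 5 members passed with each of the 24 libraries left out in turn and under all 6 other settings tried.

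FLCN (gene 201163, chromosome 17, 17115526 to 17140502, minus strand) encodes folliculin, the catalytic GTPase-activating subunit of the complex. Under siNC it was 34.0, 35.2, 28.7 and 31.1 CPM with sgCtrl, 23.7, 34.7, 35.4 and 40.0 CPM with sgKEAP1-1, and 33.9, 62.2, 48.6 and 45.1 CPM with sgKEAP1-2. After knockdown it was 19.5, 21.0, 19.5 and 22.3 CPM with sgCtrl, 22.4, 20.0, 16.3 and 18.4 CPM with sgKEAP1-1, and 16.1, 20.7, 22.3 and 17.6 CPM with sgKEAP1-2. The siNC groups had means of 32.3, 33.5 and 47.4 CPM, with SDs of 2.91, 6.93 and 11.7 CPM, and the knockdown groups means of 20.6, 19.3 and 19.2 CPM, with SDs of 1.37, 2.56 and 2.81 CPM. In each of the 3 populations all 4 knockdown libraries were below all 4 siNC libraries, a pattern shared by TFEB, TFE3 and FLCN among the members and by 0.179% of all genes. FLCN fell to 53.6% of its siNC level on average (log2 fold change -0.90, SE 0.10, adjusted p = 7.064e-06). Within 1 population it passed with sgKEAP1-2 only, by -1.27 (SE 0.18, adjusted p = 0.0003485). The changes with sgCtrl (-0.65, SE 0.18, adjusted p = 0.4969) and with sgKEAP1-1 (-0.78, SE 0.18, adjusted p = 0.1009) had the same sign, and the latter passed without the 2 libraries set apart (-0.94, adjusted p = 0.01122) and with the replicate block (-0.80, adjusted p = 0.03513).

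FNIP1 (gene 96459, chromosome 5, 130977407 to 131132710, minus strand), a partner of folliculin, was 35.8, 41.9, 43.4 and 38.7 CPM in siNC; sgCtrl, 44.4, 42.5, 32.7 and 37.6 CPM in siNC; sgKEAP1-1, and 40.9, 47.9, 41.8 and 40.0 CPM in siNC; sgKEAP1-2. After knockdown it was 35.3, 29.7, 35.4 and 31.0 CPM with sgCtrl, 28.2, 21.4, 24.3 and 31.9 CPM with sgKEAP1-1, and 47.6, 23.1, 29.3 and 23.6 CPM with sgKEAP1-2. The groups did not overlap with sgCtrl or sgKEAP1-1, and with sgKEAP1-2 the 1 overlapping value, 47.6 CPM, came from a library set apart. On average FNIP1 fell to 72.4% of its siNC level (log2 fold change -0.47, SE 0.10, adjusted p = 0.005979). It passed in no single population, with changes of -0.28, -0.57 and -0.55 for sgCtrl, sgKEAP1-1 and sgKEAP1-2, but did pass with sgKEAP1-2 once the 2 libraries were left out (-0.75, adjusted p = 0.006755).

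FNIP2 (gene 57600, chromosome 4, 159690178 to 159829202, plus strand), the alternative partner, had the smallest change of the 3. Averaged over the guides it fell to 81.2% of its siNC level (log2 fold change -0.30, SE 0.07, adjusted p = 0.01071), and it passed in no single population, where the changes were -0.22 with sgCtrl, -0.32 with sgKEAP1-1 and -0.36 with sgKEAP1-2. Its knockdown libraries were all below the siNC libraries with both KEAP1 guides and overlapped them with sgCtrl, where the siNC values were 75.4, 87.8, 89.9 and 94.6 CPM and the knockdown values 61.3, 85.7, 76.7 and 75.6 CPM. At least 2 populations without overlap, as for FNIP2 and FNIP1, occurred in 0.906% of all genes.

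The 3 Rag genes and LAMTOR1 did not pass on average. RRAGC (gene 64121, chromosome 1, 39303870 to 39325444, minus strand), which encodes a Rag that folliculin acts on, was 10.2, 10.2, 7.18 and 8.73 CPM in siNC; sgCtrl, 2.52, 9.73, 8.30 and 17.4 CPM in siNC; sgKEAP1-1, and 14.7, 13.7, 16.0 and 12.4 CPM in siNC; sgKEAP1-2. After knockdown it was 7.11, 7.97, 9.50 and 8.67 CPM with sgCtrl, 10.5, 5.17, 5.35 and 5.53 CPM with sgKEAP1-1, and 5.26, 8.61, 5.68 and 4.86 CPM with sgKEAP1-2. The groups were apart with sgKEAP1-2 and overlapped in the other 2 populations. The mean log2 fold change was -0.55 (SE 0.20, adjusted p = 0.181), made of -0.12 (SE 0.34) with sgCtrl, -0.31 (SE 0.37) with sgKEAP1-1 and -1.23 (SE 0.34, adjusted p = 0.1345) with sgKEAP1-2. The value with sgKEAP1-1 rests on single libraries, being -0.85 without siNC; sgKEAP1-1 replicate 1 and 0.0917 without siNC; sgKEAP1-1 replicate 4. The lowest siNC value, 2.52 CPM from 10 reads, belongs to a library set apart, and without both such libraries RRAGC passed on average (-0.72, adjusted p = 0.005227) and with sgKEAP1-2 (-1.19, adjusted p = 0.03294). Leaving out that siNC; sgKEAP1-1 library alone also gave a call on average (-0.73, adjusted p = 0.004099), and the change with sgKEAP1-2 passed without it or without replicate 4 of the same group (adjusted p down to 0.01612). It also passed both with DESeq2, at -0.62 (adjusted p = 0.03803) and -1.22 (adjusted p = 0.03522).

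RRAGD (gene 58528, chromosome 6, 90074335 to 90121992, minus strand), the other Rag of that type, had 0 to 21 reads a library. It had 7, 4, 2 and 12 reads in siNC; sgCtrl and 0, 1, 13 and 1 reads after knockdown, so that 3 of the 4 knockdown libraries lay below every siNC library and the remaining 1 above every one. The mean log2 fold change of -0.91 had an SE of 0.44 (adjusted p = 0.3809), and the groups overlapped in all 3 populations. It did not pass, and on so few reads the size of the change is uncertain.

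RRAGA (gene 10670, chromosome 9, 19049425 to 19051023, plus strand), the partner Rag, was far better covered, with 352 to 786 reads a library, and had the smallest change with knockdown. Its mean log2 fold change was -0.09 (SE 0.07, 95% interval -0.24 to 0.05, adjusted p = 0.6441), and its groups overlapped in all 3 populations. LAMTOR1 (gene 55004, chromosome 11, 71796941 to 71814343, minus strand), the membrane anchor of the Ragulator, was covered by 462 to 838 reads. Its log2 fold change was -0.16 (SE 0.05, 95% interval -0.26 to -0.05, adjusted p = 0.1279), with -0.13, -0.18 and -0.16 in the sgCtrl, sgKEAP1-1 and sgKEAP1-2 populations, and its groups were apart with sgKEAP1-2 only, as for RRAGC and for 3.19% of all genes in that population.

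**Figure D2:**
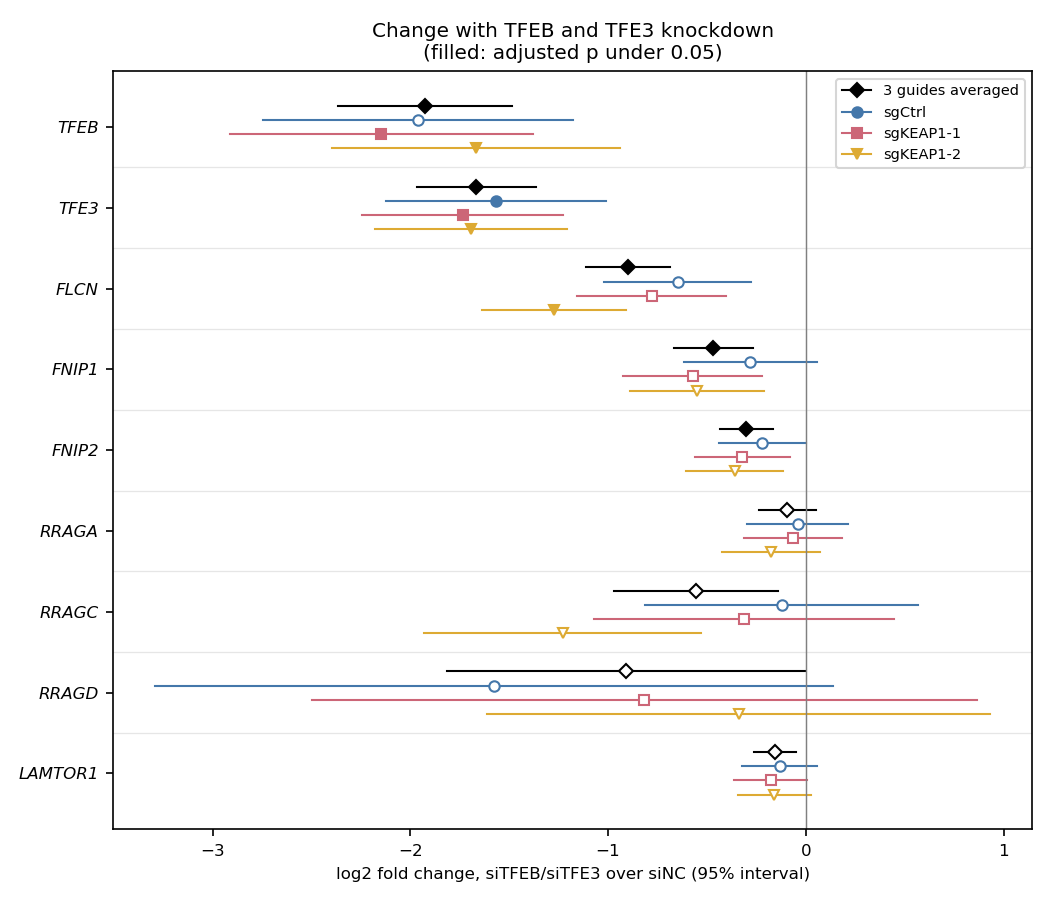
Log2 fold change of siTFEB/siTFE3 over siNC (horizontal axis) with its 95% interval for the 9 tested genes, averaged over the guides (black diamonds) and in each guide population, filled where the adjusted p is below 0.05. Among the diamonds those of TFEB and TFE3 lie lowest. Those of FLCN, FNIP1 and FNIP2 are filled, at -0.90, -0.47 and -0.30. The diamonds of RRAGA, RRAGC, RRAGD and LAMTOR1 are open, with RRAGD at -0.91 and RRAGC at -0.55.

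The promoters of the members were searched for the palindromic E-box CACGTG, the core of the sequence that MiT/TFE proteins bind. RefSeq start sites gave 13 windows for 8 members, RRAGA and RRAGD having none, and the 250 bases before each start were searched on both strands. The E-box was in the window of FNIP1, at 175 and at 94 bases before the start, of LAMTOR1, at 165 bases, and of RRAGC, at 112 bases. It was in 6.34% of all 35116 windows searched. No CACGTG was found in the windows of FLCN, FNIP2, MITF, TFE3 or TFEB, which says only that these letters are not there. The stretches around the matches are shown because these are the 3 members whose windows hold the E-box. FNIP1 passed with knockdown on average and the other 2 did not, and the difference between the genes was not tested. They run 5′ to 3′ on the gene's strand, which is the minus strand in each, at chr5:131132759-131132925, chr11:71814463-71814548 and chr1:39325511-39325596 of GRCh37, with the E-box in capitals.
FNIP1: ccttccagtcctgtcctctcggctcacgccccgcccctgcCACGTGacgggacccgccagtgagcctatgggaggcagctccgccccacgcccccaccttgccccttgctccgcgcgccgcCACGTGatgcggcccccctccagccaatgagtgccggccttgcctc
LAMTOR1: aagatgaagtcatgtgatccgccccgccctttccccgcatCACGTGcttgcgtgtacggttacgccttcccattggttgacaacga
RRAGC: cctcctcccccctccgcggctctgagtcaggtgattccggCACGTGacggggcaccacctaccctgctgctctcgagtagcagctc
The 2 forms of the antioxidant response element that were searched, to which NRF2 binds, are TGACNNNGC and TGAGNNNGC. The first was in the window of RRAGC, at 108 bases before the start and overlapping the E-box, and in 10.9% of all windows. The second was in that of LAMTOR1, at 79 bases, and in 14.8% of all windows. Neither was in the windows of FNIP2 or TFE3, and a match in such a window is a description of the sequence and not of binding.

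KEAP1 loss was compared with sgCtrl to see whether the circuit itself changes when the NRF2 adaptor is disrupted. Under siNC, averaged over both guides, 3 of the 9 tested members passed, TFE3 and RRAGA as higher and FNIP2 as lower. Over all genes 16.8% passed and 8.29% passed as higher. With sgKEAP1-1 alone 1 of the 9 passed against 10.9% of all genes, and with sgKEAP1-2 alone 4 of the 9 against 14.7%. Under siTFEB/siTFE3 it was 2 of the 9 on average, 1 with sgKEAP1-1 and 1 with sgKEAP1-2, against 19.4%, 10.5% and 20.2% of all genes. The median log2 fold change, averaged over both guides, was 0.16 over the members and -0.01 over all genes under siNC. Under siTFEB/siTFE3 these medians were 0.12 and 0.004. The siNC; sgCtrl libraries serve here as the reference and also enter the knockdown comparison, and the liver markers given above moved with the same guides.

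FNIP2 had the clearest difference. Under siNC it was 75.4, 87.8, 89.9 and 94.6 CPM with sgCtrl, 59.5, 57.0, 62.1 and 51.1 CPM with sgKEAP1-1, and 51.7, 54.1, 53.3 and 51.3 CPM with sgKEAP1-2. Under siTFEB/siTFE3 it was 61.3, 85.7, 76.7 and 75.6 CPM with sgCtrl, 44.7, 50.1, 41.2 and 47.1 CPM with sgKEAP1-1, and 40.2, 36.7, 40.0 and 47.5 CPM with sgKEAP1-2. All libraries of both KEAP1 guides were below all sgCtrl libraries under either siRNA, which held for 2.10% of all genes. The log2 fold change averaged over the guides was -0.66 under siNC (SE 0.09, adjusted p = 1.076e-05) and -0.78 under siTFEB/siTFE3 (SE 0.10, adjusted p = 1.289e-06). Each guide passed under each siRNA, by -0.60 (adjusted p = 0.0004322) and -0.72 (adjusted p = 3.575e-05) under siNC and by -0.70 (adjusted p = 0.000109) and -0.86 (adjusted p = 4.17e-06) under siTFEB/siTFE3 for sgKEAP1-1 and sgKEAP1-2. The difference between the 2 averages was -0.12 (SE 0.14, adjusted p = 0.9988, 95% interval -0.40 to 0.16). FNIP2 thus fell with KEAP1 loss and, on average, with knockdown, whereas the change of FNIP1 with KEAP1 loss was 0.03 under siNC (SE 0.14, adjusted p = 0.9087), against -0.25 under siTFEB/siTFE3 (SE 0.15, adjusted p = 0.2725), where it passed without the 2 libraries set apart (-0.35, adjusted p = 0.03231).

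TFE3 rose with KEAP1 loss under siNC to 1.51-fold of its sgCtrl level on average (log2 fold change 0.60, SE 0.18, adjusted p = 0.02204). With sgKEAP1-2 all 4 libraries were above all 4 sgCtrl libraries and the gene passed (0.67, SE 0.20, adjusted p = 0.02544), a call lost without siNC; sgCtrl replicate 1 or 3 or siNC; sgKEAP1-2 replicate 2 or 4 (adjusted p up to 0.119). With sgKEAP1-1 the values overlapped, since its lowest library, at 34.0 CPM, lay within the sgCtrl range, and TFE3 did not pass (0.52, SE 0.21, adjusted p = 0.1128). Without that library, siNC; sgKEAP1-1 replicate 4, it passed (0.70, adjusted p = 0.02824). The averaged call was lost without siNC; sgCtrl replicate 1 or replicate 3, where the adjusted p reached 0.08725. Under siTFEB/siTFE3, where the siRNA acts on the TFE3 transcript, the change was 0.45 (SE 0.26, adjusted p = 0.2628). For TFEB the value was 0.10 (SE 0.22, 95% interval -0.36 to 0.55, adjusted p = 0.8287) under siNC, and its groups overlapped with both guides.

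RRAGA was 102, 136, 101 and 132 CPM in siNC; sgCtrl, 141, 149, 147 and 163 CPM in siNC; sgKEAP1-1, and 147, 138, 178 and 155 CPM in siNC; sgKEAP1-2. All 8 libraries with a KEAP1 guide were above the 4 sgCtrl libraries, as for 5.75% of all genes. The averaged log2 fold change was 0.38 (SE 0.11, adjusted p = 0.01262), and sgKEAP1-2 passed alone (0.40, SE 0.12, adjusted p = 0.02508), whereas sgKEAP1-1 did not (0.36, SE 0.12, adjusted p = 0.05727). With sgKEAP1-1 it passed with the replicate block (0.36, adjusted p = 0.03372) and without the 2 libraries set apart (0.39, adjusted p = 0.0269). As for TFE3, the averaged call was lost without siNC; sgCtrl replicate 1 or replicate 3 (adjusted p up to 0.07607), and that with sgKEAP1-2 without either of them or siNC; sgKEAP1-2 replicate 3 or 4 (adjusted p up to 0.112). Under siTFEB/siTFE3 RRAGA was 101, 115, 118 and 120 CPM with sgCtrl, 148, 145, 138 and 143 CPM with sgKEAP1-1, and 115, 114, 159 and 163 CPM with sgKEAP1-2. The groups were apart with sgKEAP1-1 and overlapped with sgKEAP1-2. The averaged change of 0.30 (SE 0.11) passed at an adjusted p of 0.04705, but not when any 1 library was left out (adjusted p up to 0.165), apart from replicate 1 of siNC; sgCtrl, replicate 1 of siNC; sgKEAP1-1 and replicates 1 and 2 of siTFEB/siTFE3; sgKEAP1-2, nor with RLE size factors (adjusted p = 0.051) or no filter (adjusted p = 0.05964). Neither guide passed alone, and without the 2 libraries set apart both did, at 0.33 (adjusted p = 0.04451) for sgKEAP1-1 and 0.34 (adjusted p = 0.03946) for sgKEAP1-2.

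FLCN passed with 1 of the guides and RRAGC with neither. Averaged over both, FLCN had a log2 fold change of 0.28 under siNC (SE 0.14, adjusted p = 0.2028), and without the 2 libraries set apart it passed (0.36, adjusted p = 0.03987). With sgKEAP1-2 it rose (0.53, SE 0.16, adjusted p = 0.02449), although 1 of the 4 libraries, at 33.9 CPM, lay within the sgCtrl range. This call was lost without siNC; sgCtrl replicate 3 or 4 or siNC; sgKEAP1-2 replicate 2 or 3 (adjusted p up to 0.1167). With sgKEAP1-1 the change was 0.03 (SE 0.17, adjusted p = 0.9403). Under siTFEB/siTFE3 the averaged change of FLCN was -0.10 (SE 0.17, adjusted p = 0.7461). The value for RRAGC under siNC was 0.64 with sgKEAP1-2 (SE 0.31, adjusted p = 0.1776), where its 4 libraries were all above sgCtrl, and -0.21 (SE 0.34, adjusted p = 0.7668) with sgKEAP1-1, whose 4 libraries ran from below to above all sgCtrl libraries. Without siNC; sgKEAP1-1 replicate 1, a library set apart, the RRAGC value with sgKEAP1-1 turned to 0.32, and it was 0.0635 with edgeR and 0.0649 with DESeq2. Without both libraries set apart RRAGC passed with sgKEAP1-2 (0.64, adjusted p = 0.04088). The direct contrast of sgKEAP1-2 with sgKEAP1-1, averaged over the siRNAs, gave 0.25 for FLCN (SE 0.13, adjusted p = 0.6061), 0.40 for RRAGC (SE 0.25, adjusted p = 0.7046) and, on few reads, 1.00 for RRAGD (SE 0.51, adjusted p = 0.6061). Of the 9 members 0 passed it against 0.117% of all genes, which is 13 genes, and 48 with the replicate block, so a difference between the guides was not shown for any member. With KEAP1 loss under siNC the log2 fold change of RRAGD was -0.05 (SE 0.57, adjusted p = 0.97) and that of LAMTOR1 was 0.16 (SE 0.08, adjusted p = 0.1852).

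**Figure D3:**
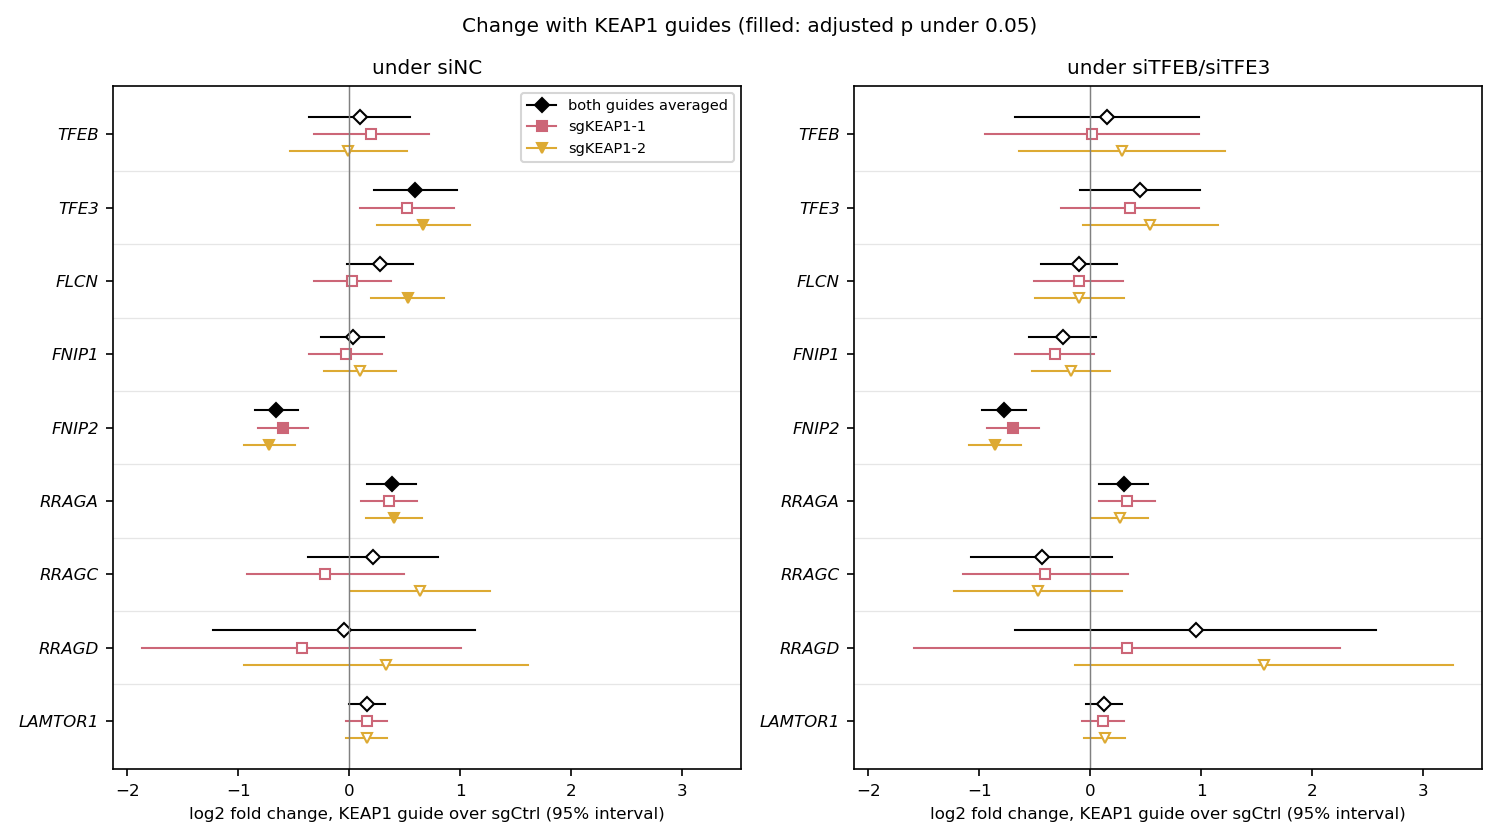
Log2 fold change of the KEAP1 guides over sgCtrl (horizontal axis) with its 95% interval for the 9 tested genes under siNC (left) and siTFEB/siTFE3 (right), averaged over both guides (black) and for each guide, filled where the adjusted p is below 0.05. FNIP2 is lower in all 6 estimates, and TFE3, RRAGA and LAMTOR1 are above 0 in all 6. With sgKEAP1-2, TFEB, FLCN, FNIP1 and RRAGC change sign between the panels.

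Whether knockdown alters the response to KEAP1 loss was tested as an interaction, the KEAP1 effect under siTFEB/siTFE3 minus that under siNC. Of the 11152 genes 0 passed in limma-voom for the average or for either guide (0% in each), with 349, 304 and 454 genes at an unadjusted p below 0.05 for the average, sgKEAP1-1 and sgKEAP1-2, and edgeR and DESeq2 also called 0. Among the members FLCN and RRAGC had an unadjusted p below 0.05, both for sgKEAP1-2. The FLCN interaction was -0.63 (SE 0.25, unadjusted p = 0.01995, adjusted p = 0.9907) with sgKEAP1-2 and -0.13 (SE 0.26, adjusted p = 0.9997) with sgKEAP1-1. That of RRAGC was -1.11 (SE 0.48, unadjusted p = 0.02883, adjusted p = 0.9907) with sgKEAP1-2 and -0.19 (SE 0.50, adjusted p = 0.9997) with sgKEAP1-1. These estimates and the knockdown and KEAP1 effects with sgKEAP1-2 given above share the siNC; sgKEAP1-2 libraries.

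The rest of the pathway was described with lists of genes not in the set, beside the shares of all genes given above. Of the other Rag and Ragulator genes RRAGB and LAMTOR2 to LAMTOR5, taken with the arginine sensor SLC38A9, 0 of 6 passed with knockdown or with KEAP1 loss under siNC, and the medians were -0.03 and 0.04. Of the GATOR1, GATOR2 and KICSTOR genes, which control the nucleotide state of RagA, 0 of 11 tested passed in either. For mTORC1 and its TSC and RHEB switch it was 0 of 8. Of the 5 tested amino acid sensors upstream of GATOR, SESN1, of the sestrin family of GATOR2 inhibitors, rose with knockdown (0.48, SE 0.10, adjusted p = 0.006669) and fell with KEAP1 loss (-0.51, SE 0.15, adjusted p = 0.01951). Its mean was 29.9 ± 5.32 CPM in siNC; sgCtrl (SD, n = 4), 20.3 ± 2.95 CPM with sgKEAP1-1 and 21.8 ± 4.24 CPM with sgKEAP1-2, and under siTFEB/siTFE3 it was 34.4 ± 6.66, 34.1 ± 4.61 and 29.9 ± 4.37 CPM in the same order. The call with KEAP1 loss was lost without siNC; sgCtrl replicate 1 or replicate 4 (adjusted p up to 0.1025). Of 16 tested regulators of TFEB and TFE3 phosphorylation and location, 0 passed with knockdown, and with KEAP1 loss 3 rose and 1 fell, against 16.8% of all genes that passed. The 3 were among 6 genes of 14-3-3 proteins, which hold phosphorylated TFEB and TFE3 in the cytoplasm. These were YWHAB (0.22, adjusted p = 0.01167), YWHAG (0.38, adjusted p = 0.005431) and YWHAZ (0.36, adjusted p = 0.001389). The other 3 of the 6 did not pass. MAP4K3, a kinase that phosphorylates TFEB, fell (-0.54, adjusted p = 0.02844), a call lost without siNC; sgCtrl replicate 3 or 4 or siNC; sgKEAP1-2 replicate 1 (adjusted p up to 0.1264).

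Of 23 textbook target genes of the MiT/TFE factors, most of which encode proteins of the lysosome or of autophagy, 21 were tested. With knockdown 5 fell and 0 rose, with a median of -0.215, and within 1 population 0, 0 and 1 fell with sgCtrl, sgKEAP1-1 and sgKEAP1-2, with medians of -0.09, -0.20 and -0.26. ASAH1, the lysosomal acid ceramidase, fell by 0.50 (SE 0.06, adjusted p = 1.963e-05) on the log2 scale. The autophagy receptor gene SQSTM1 fell by 0.61 (SE 0.09, adjusted p = 0.0003307) and PPARGC1A, a coactivator of mitochondrial genes, by 0.76 (SE 0.15, adjusted p = 0.004196). The protease genes CTSB and TPP1 fell by 0.45 (adjusted p = 0.006623) and 0.31 (adjusted p = 0.01377). With KEAP1 loss under siNC 9 rose and 0 fell, with a median of 0.293, and under siTFEB/siTFE3 4 rose and 0 fell, with a median of 0.271. Among all 11152 genes 925 passed as higher with KEAP1 loss under siNC and 1107 under siTFEB/siTFE3. For the difference between these KEAP1 effects 0 of the 21 passed, with a median of -0.11. Of the 9 that rose with KEAP1 loss under siNC, the 5 with the smallest p were SQSTM1 (1.32, SE 0.14, adjusted p = 1.255e-07), the alpha-galactosidase gene GLA (1.47, SE 0.17, adjusted p = 4.279e-07), the ATG8 family gene GABARAPL1 (1.25, SE 0.18, adjusted p = 1.35e-05), CTSB (0.85, SE 0.14, adjusted p = 9.018e-05) and the lysosomal glycosidase gene HEXA (0.70, SE 0.12, adjusted p = 0.000153). The remaining 4 were CTSD, GPNMB, LAMP1 and TPP1. SQSTM1 is also a textbook NRF2 target. It was 287 ± 56.5 CPM in siNC; sgCtrl, 652 ± 99.8 CPM with sgKEAP1-1 and 782 ± 161 CPM with sgKEAP1-2 under siNC, and 198 ± 50.1, 402 ± 32.2 and 518 ± 67.2 CPM under siTFEB/siTFE3 (SD, n = 4).

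**Figure D4:**
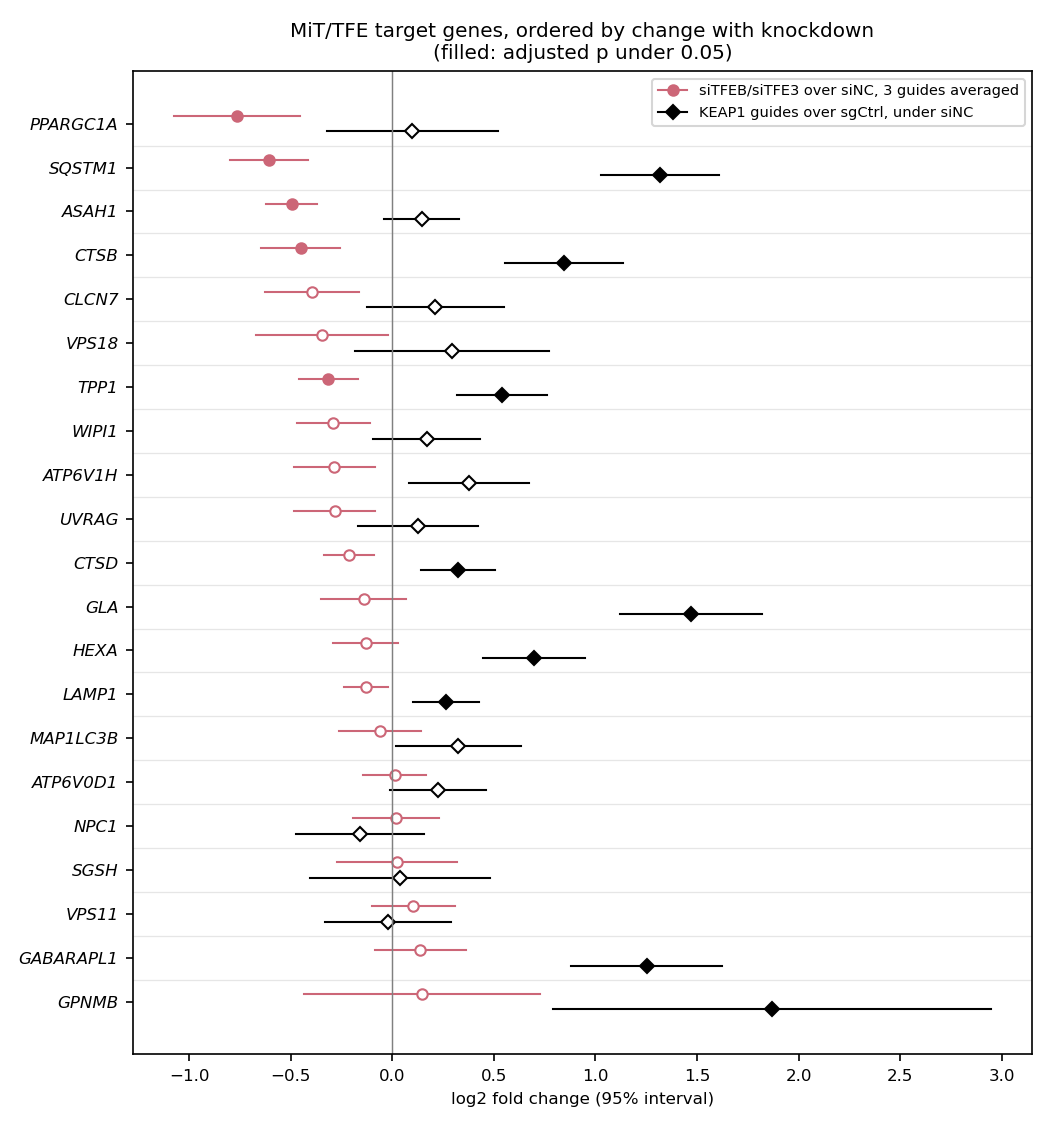
Log2 fold change (horizontal axis, 95% interval) of the 21 tested MiT/TFE target genes with TFEB and TFE3 knockdown averaged over the guides (red circles) and with KEAP1 guides under siNC (black diamonds), filled where the adjusted p is below 0.05. The 5 filled red circles are all below 0 and the 9 filled black diamonds are all above 0.

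Over the 24 libraries, log2 CPM of TFEB and of TFE3 correlated at a Pearson's r of 0.85, and with FLCN at 0.78 and 0.81. For FNIP2 the same correlations were 0.23 with TFEB, 0.15 with TFE3 and 0.24 with FLCN. RRAGC followed FLCN at 0.72. Among genes with a mean of at least 10 reads the closest to TFEB were UAP1L1 (0.88), CCDC117 (0.88) and ASAH1 (0.86), those closest to TFE3 were ASAH1 (0.88), UAP1L1 (0.86) and CLTA (0.86), and those closest to FLCN were ASAH1 (0.87), RSL24D1 (0.87) and NUPR1 (0.86). For RRAGD the highest values, for UFL1, ATP7A and LMBRD2, were 0.65, 0.64 and 0.63, on its 0 to 21 reads. The libraries share the 6 groups, the siRNA effect and their depth, so these values describe the libraries and not a link between the genes.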

How the data were processed

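HepG2 RNA was sequenced by QuantSeq, which reads the 3′ ends of polyadenylated transcripts. Per the study's methods and the submitters' processing notes reads were checked with FastQC 0.72, trimmed with cutadapt 1.16, aligned with STAR 2.7.5b and assigned to genes with featureCounts 1.6.3. The values the authors deposited are raw read counts per gene, with no normalisation. The notes name hg38 and the methods name hg19 (GRCh37), and the table holds no coordinates, so the build of the counts is uncertain. Gene positions given here are those of the GENCODE annotation lifted to GRCh37, and promoter windows are those of RefSeq (GRCh38.p14), given with GRCh37 coordinates where the sequence matched once (12 of 13 windows, TFE3 excepted). The strand setting of the counting was not given in the sources used here.

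The 1414 of 13446 rows without a gene ID (1.35% to 2.57% of reads) were left out of library sizes and tests. IDs that shared rows were summed, and IDs with identical counts were kept as 1 feature, which left 11927. With limma 3.58.1 and edgeR 4.0.16 under R 4.3.3 (the submitters' notes name limma 3.40.6), limma-voom was fitted to 6 group means over all 24 libraries after filterByExpr by group (11152 genes) and TMM scaling. Tests were two-sided, with Benjamini-Hochberg adjustment over all genes tested. CPM are reads scaled by the summed reads of the tested genes times the TMM factor, and log2 CPM add a prior count of 2. Alternatives were edgeR's quasi-likelihood test, DESeq2 1.42.0, RLE size factors, no filter, a replicate block, leaving out the 2 libraries set apart and leaving out each library. Chi-square per degree of freedom was 3.59 to 35.0 between libraries within a group, above counting error, so none was counted as a copy of another. The limma-voom fit was tested on simulated counts with known changes. These were set only in genes with a mean above 5 CPM and were alike in the 3 guide populations. No interaction was simulated, so the rates below do not cover MITF, RRAGD or the interaction tests. For knockdown averaged over the guides it recovered 76.1% of 1.5-fold and 100% of 2-fold changes, with 13 false calls. For knockdown in sgCtrl alone it recovered 22.4% of 1.5-fold and 70.1% of 2-fold changes, with 2 false calls. Replicate numbers were taken to pair the libraries, since each goes with 1 prefix of the sample descriptions that reads as a date in all 6 groups. Deviations of same-numbered libraries correlated at -0.07 to 0.26, over 0.1 in 11 of 28 cases. The study's methods name no block, so the fit without it is the main one and blocked values stand where they changed a call. Members were always named. Of each pathway list, up to 5 genes that passed with knockdown or with KEAP1 loss under siNC were named by smallest p, and for TFEB, TFE3, FLCN and RRAGD the 3 genes of closest pattern. Of the target list, 2 genes are not reported here and were left out of its counts and medians. The members and lists were chosen with earlier results of these data known.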

Additional observations from a re-analysis of the deposited data

Results flagged for a closer look

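In 5 of the 60 combinations of a member and a group of 4 libraries, 1 library lay far from the other 3, measured as its gap to the nearest of them over the range of the group. For 4 values from a normal distribution chance gives about 1 such case in 20. CPM that rest on few reads need not follow that distribution, so the rate is only a rough guide here. TFEB was 3.96 CPM (16 reads) in siTFEB/siTFE3; sgCtrl replicate 4 and 2.11 to 2.32 CPM in the others. RRAGC was 10.5 CPM (38 reads) in siTFEB/siTFE3; sgKEAP1-1 replicate 1 and 5.17 to 5.53 CPM in the others. RRAGD was 3.01 CPM (13 reads) in siTFEB/siTFE3; sgCtrl replicate 3 and 0 to 0.248 CPM in the others. MITF was 1.99 CPM (9 reads) in siTFEB/siTFE3; sgKEAP1-1 replicate 4 and 0.276 to 0.535 CPM in the others, and 2.95 CPM (13 reads) in siTFEB/siTFE3; sgKEAP1-2 replicate 3 and 0.246 to 0.619 CPM in the others. All 5 were the highest value of a knockdown group.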

How the results depend on the processing

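The 5 members called for knockdown averaged over the guides, and the FNIP2 calls for KEAP1 loss, held under every alternative. The number of members called for knockdown in sgCtrl was 1, and 2 with edgeR, DESeq2 or the replicate block, and 0 to 1 with 1 library left out. For knockdown in sgKEAP1-1 it was 1 to 3 with 1 library left out, and in sgKEAP1-2 it was 5 without the 2 libraries set apart. For KEAP1 loss under siNC it was 1 to 3 with 1 library left out on average, 1 to 2 for sgKEAP1-1 and 1 to 5 for sgKEAP1-2. Over all genes 1451 to 2136, 895 to 1424 and 1175 to 1909 were called in these fits. For sgKEAP1-1 under siNC it was 2 with the replicate block and 2 without the 2 libraries. Under siTFEB/siTFE3 it was 1 for the average with RLE size factors or no filter, and 2 for each guide without the 2 libraries. With 1 library left out it was 1 to 3 for the average, where 1707 to 2432 of all genes were called. Some values changed sign. RRAGC with sgKEAP1-1 under siNC, -0.21 in the main fit, was 0.0635 with edgeR, 0.0649 with DESeq2, 0.32 without the 2 libraries and -0.61 to 0.32 with 1 left out. With 1 left out the others were RRAGC for knockdown in sgKEAP1-1 (-0.85 to 0.0917, -0.31 in the main fit) and for the sgKEAP1-1 interaction (-0.72 to 0.21), and FLCN with sgKEAP1-1 under siNC (-0.061 to 0.19). So did TFEB (-0.0865 to 0.34), FNIP1 (-0.0185 to 0.0807) and RRAGD (-0.35 to 0.31) with KEAP1 loss under siNC. The cause was not tested. Genes called for knockdown averaged over the guides went from 260 to 422 with DESeq2 and 432 without the 2 libraries, in sgCtrl from 2 to 3 with edgeR, 11 with DESeq2, 4 with the block and 4 without the 2 libraries, in sgKEAP1-1 from 10 to 48 with DESeq2, 30 with the block and 23 without the 2 libraries, in sgKEAP1-2 from 40 to 108 with DESeq2 and 69 without the 2 libraries, and for sgKEAP1-2 against sgKEAP1-1 from 13 to 46 with DESeq2 and 48 with the block. With the replicate block the averaged knockdown called 380 genes. With 1 library left out, knockdown called 1 to 2 of all genes in sgCtrl, 3 to 18 in sgKEAP1-1 and 12 to 61 in sgKEAP1-2. Beside TFEB in sgCtrl, FLCN in sgKEAP1-1 and RRAGA with sgKEAP1-1 under siNC, which it added, the block changed no call of the members and list genes given with values that were refitted. Depth limits MITF and RRAGD, which had at most 13 and 21 reads.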
